A study of Mus musculus with 12 samples.

Results

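Untreated diabetic mice were compared with untreated normal mice in 6 of the 12 arrays of a mouse study of mcIRBP, an insulin receptor-binding protein of bitter melon (Momordica charantia). The arrays were chosen by their titles, as the 3 mock arrays of diabetic mice and the 3 mock arrays of normal mice. Of 29922 probes, the 21020 that carry a gene symbol were described, while the tests ran on all 29922. The diabetic mock group held RNA of male BALB/c mice labelled diabetic and untreated, and the normal mock group RNA of female BALB/c mice labelled normal and untreated. The other 6 arrays held diabetic and normal mice given mcIRBP. How diabetes was brought about, the age of the mice and whether the 3 arrays of a group were 3 mice are not given in the labels. The p-values therefore measure the spread between arrays, which may be technical. Sex and disease state fell on the same arrays, as did the sets in which the authors normalized their values, so the 3 cannot be told apart in any difference below.

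Each array measures amplified RNA labelled with Cy5, 1 colour per array, and a level below is a log2 normalized intensity. A difference is the diabetic mock mean minus the normal mock mean on that scale, so that 1 stands for a doubling of intensity. A gene is said to have risen or fallen where limma's moderated test gave a Benjamini-Hochberg adjusted p under 0.05 over all probes. Probes without signal pile up at a floor on each array, and a probe counted as above it when it exceeded the floor by 5 SD. The 3 diabetic mock arrays had 11023, 12451 and 9230 probes above the floor, against 3872, 2642 and 2488 on the 3 normal mock arrays. The normal mock arrays were thus dimmer. They were also less alike, with a median SD of 0.11 between diabetic mock arrays and 0.23 between normal mock arrays over the 1913 probes above the floor on all 6. Where no array of a group was above the floor, the fold is a lower bound against the dimmest signal above it, written "at least".

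Muscle takes up much of the glucose that insulin clears from blood, and in insulin deficiency it is known to switch from glucose to fatty acids as fuel and to break down protein. Fat tissue releases fatty acids when insulin is low, and the liver, which secretes most plasma proteins, makes glucose. All samples were labelled as muscle. The defining muscle genes were nevertheless near the floor in both groups. Of 41 measured skeletal muscle genes, 8 exceeded the floor on every diabetic mock array and 1 on every normal mock array, while 19 were below it on all 6. Ckm, the muscle creatine kinase, had levels of 5.82, 5.84 and 5.83 in diabetic mock mice, against 7.01, 7.27 and 7.04 in normal mock mice. Markers of fat were bright instead. Of 27 white fat genes, 26 exceeded it on every diabetic mock array and 20 on every normal mock array. Adipoq, the fat hormone adiponectin, had levels of 13.29, 13.34 and 13.22 in diabetic mock mice and 12.69, 12.01 and 12.37 in normal mock mice. Of 53 liver genes, 15 did so on every diabetic mock array and 47 on every normal mock array. The label muscle is therefore not borne out by the defining muscle genes, and the samples are called by their group names below.

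**Figure D1:**
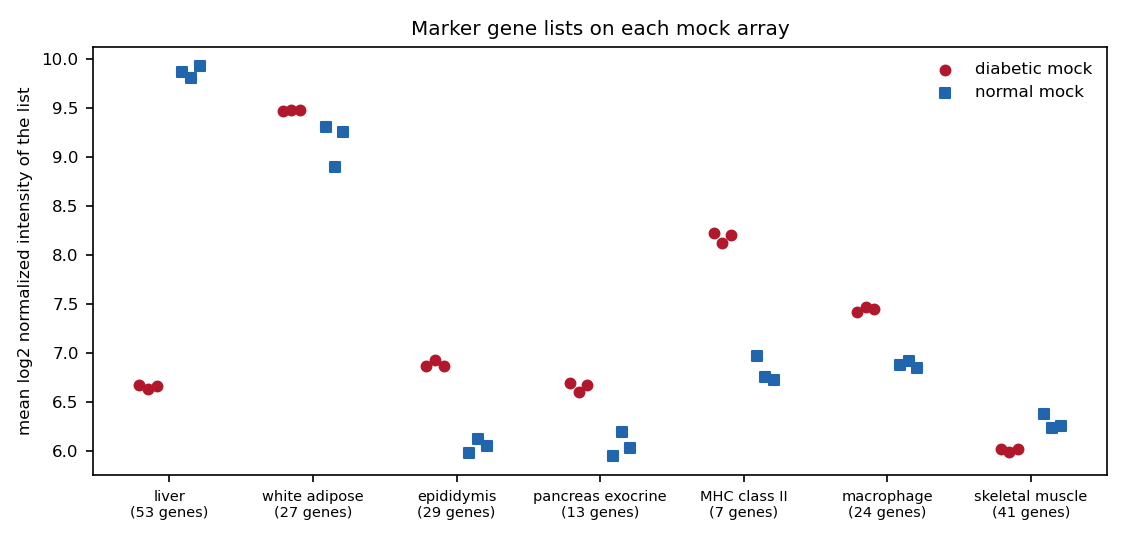
Each point is the mean log2 normalized intensity of 1 marker list on 1 array, with diabetic mock arrays as red circles and normal mock arrays as blue squares. Liver genes averaged between 6.63 and 6.67 in diabetic mock mice, against 9.81 and 9.92 in normal mock mice, and skeletal muscle genes stayed near the floor in both groups.

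In all, 1415 probes were higher in diabetic mock mice, which is 4.73% of those tested, and 1191 were lower, which is 3.98%. Among the called probes with a symbol, 65 were lower and 1 was higher by a fitted difference of more than 3 on the log2 scale. Most rises began at the floor: of the 1415 probes called higher, 1212 were below the floor on all 3 normal mock arrays. Of the 1191 called lower, 770 were below it on all 3 diabetic mock arrays. Of the calls, 611 were of probes below the floor on all 6 arrays, whose signals have no order. Direction depended on the scaling: 26.6% of the probes called higher kept their sign after housekeeping scaling, and 77.0% of those called lower after median scaling. Over all probes the median difference was -0.02 after quantile normalization, 0.05 after median scaling and -1.69 after scaling to 10 housekeeping probes, which were brighter on the diabetic mock arrays. Of the calls, 54.3% were higher after quantile normalization, 66.7% after median scaling (10073 higher and 5019 lower) and 1.58% after housekeeping scaling (395 and 24585). Leaving out diabetic mock replicate 1, 2 or 3 gave 523, 744 and 527 higher calls and 606, 683 and 613 lower calls, and leaving out normal mock replicate 1 gave 1975 lower calls.

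**Figure D2:**
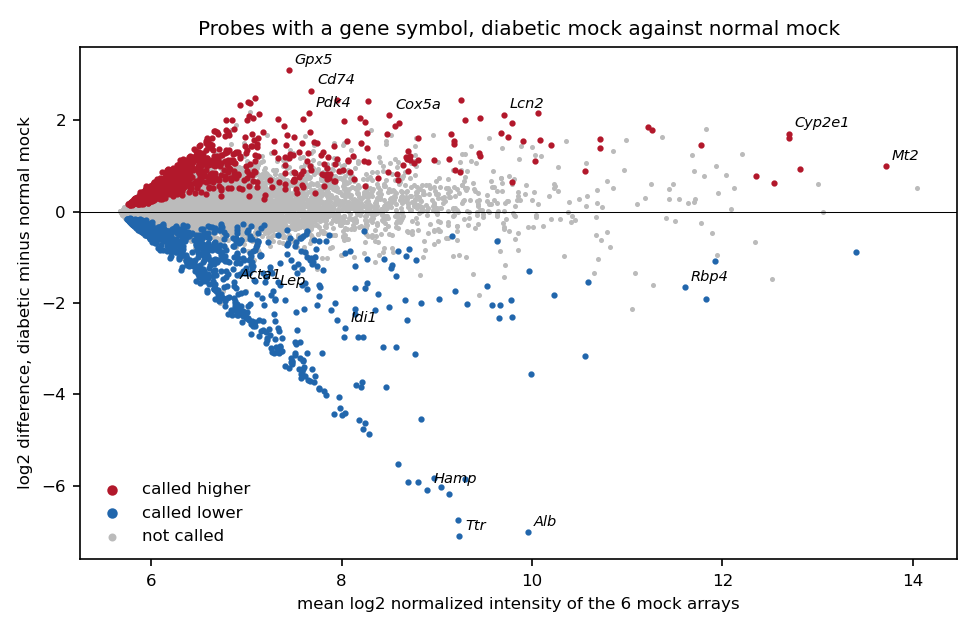
Each point is a probe with a gene symbol, placed by its mean log2 normalized intensity over the 6 mock arrays and by the log2 difference of diabetic minus normal mock. Red points were called higher, blue points lower and grey points neither. The points of Ttr, at -7.09, and Gpx5, at 3.10, are fitted values with 1 group below the floor, while Alb, at -7.02, was above it on all 6 arrays.

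Genes of the liver's secreted proteins fell almost as a whole. Of 53 measured liver genes, 46 fell, 2 rose and 5 did not pass, with a median difference of -3.26 against -0.02 over all probes (-3.11 with groups below the floor at their bound). Of the 46 falls, 1 was of a gene below the floor on all 6 arrays. The 46 falls kept their sign after housekeeping scaling and cyclic loess, and 44 of them after median scaling. Leaving out any 1 of the 6 arrays again gave 46. The 10 largest falls, ranked by fitted difference, were all of genes that the liver secretes or uses to carry fat. In these bulk samples, fewer cells of a type and less RNA per cell cannot be told apart.

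Albumin, the main protein of blood plasma, is encoded by Alb (probe mMC005336). Its level was 6.43, 6.51 and 6.40 in diabetic mock mice and 13.45, 13.55 and 13.40 in normal mock mice. The difference was -7.02 with a standard error (SE) of 0.15 (adjusted p = 6.21e-10), and the groups lay far apart. Ttr, the plasma carrier of thyroid hormone (probe mMC011315), had levels of 5.71, 5.68 and 5.68 in diabetic mock mice, all below the floor, and 12.21, 13.22 and 12.92 in normal mock mice. It was at least 107-fold lower in diabetic mock mice (adjusted p = 5.31e-09). Hamp, the iron hormone hepcidin, had 5.86, 5.89 and 5.83 in diabetic mock mice, also below the floor, against 11.99, 12.06 and 11.78 in normal mock mice. Its adjusted p was 1.22e-11.

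The apolipoproteins, which carry fat in blood, fell with them. Apoa2 was at least 94.7-fold lower in diabetic mock mice, with levels of 5.85, 5.85 and 5.86 there and 12.53, 12.74 and 12.53 in normal mock mice. Apoa1, the main protein of high density lipoprotein, had a difference of -6.18 and Apoc3, which slows the breakdown of blood fat, one of -5.84. Fabp1, the liver's fatty acid binding protein, was at least 49.3-fold lower and Serpinc1, the clotting inhibitor antithrombin, at least 52.6-fold lower. Ahsg, the plasma protein fetuin-A, differed by -6.02 and Serpina1e, a protease inhibitor of the alpha-1-antitrypsin family, by -5.85. The adjusted p of the 10 largest falls ran from 1.22e-11 to 6.67e-08. They were chosen among genes whose groups did not overlap.

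**Figure D3:**
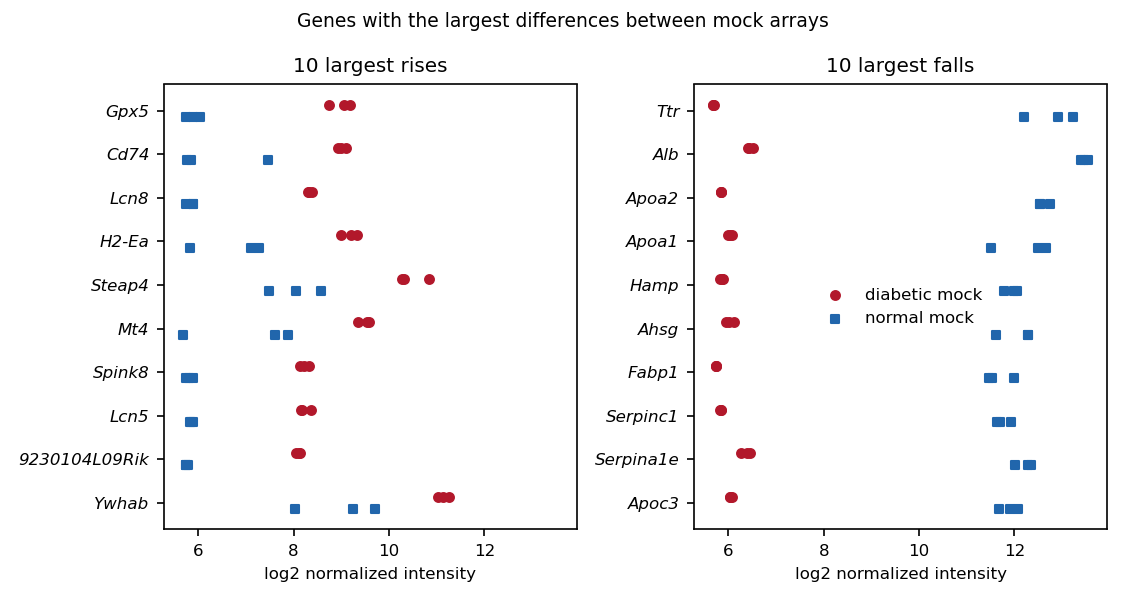
The 10 genes with the largest rises (left) and the 10 with the largest falls (right), with the log2 normalized intensity of each diabetic mock array (red circles) and each normal mock array (blue squares). In the falls the diabetic mock arrays lie between 5.68 and 6.51 and the normal mock arrays between 11.46 and 13.55.

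Liver enzymes that stay in the cell fell too. Cps1 and Otc, enzymes of the urea cycle that removes ammonia, were at least 10.9-fold and at least 8.39-fold lower in diabetic mock mice. Of 28 genes of bile acid synthesis and P450 enzymes, 20 fell, 2 of them below the floor on all 6 arrays, and 3 rose. Cyp4a10, which oxidizes fatty acids, differed by -3.84, and Cyp1b1, a P450 found mostly outside the liver, rose with levels of 9.29, 9.30 and 9.08 in diabetic mock mice and 7.28, 7.20 and 7.30 in normal mock mice. Of 33 complement and coagulation genes 19 fell and 1 rose. The rise was that of Pros1, the anticoagulant protein S, whose sign turned after housekeeping scaling. Fgb, a chain of fibrinogen, was at least 13.4-fold lower.

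Not every liver gene followed. Trf, the iron carrier transferrin, had a difference of -2.12 that did not pass (adjusted p = 0.157). Pck1, the enzyme that commits carbon to glucose synthesis in liver and to glycerol synthesis in fat, had levels of 9.73, 10.23 and 10.05 in diabetic mock mice and 10.10, 10.02 and 10.14 in normal mock mice. The groups overlapped (adjusted p = 0.877), and the difference of -0.08 turned to 2.15 after median scaling. The 2 liver genes that rose are also made in fat: Cyp2e1, an alcohol-oxidizing P450, with a difference of 1.71 (SE 0.33, adjusted p = 0.0114), and Hp, haptoglobin, with 0.78 (SE 0.16, adjusted p = 0.0157). The sign of Hp turned to -0.32 after cyclic loess.

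Some glucose-making enzymes fell. Of 13 gluconeogenesis genes 7 fell and 0 rose, beside 4.73% of all probes higher and 3.98% lower, and the median was -0.78. After median scaling 6 of the 7 kept their sign, and 5 members were called higher and 4 lower. G6pc, which releases glucose from the liver cell, had levels of 6.13, 5.97 and 6.09 in diabetic mock mice and 8.98, 7.91 and 8.93 in normal mock mice. The difference was -2.55 (SE 0.25, adjusted p = 0.000123). Fbp1, the enzyme before it in the path, differed by -4.05 (adjusted p = 9.95e-09). Of 18 cholesterol synthesis genes, 9 fell and 0 rose, led by Idi1, which makes the isoprenoid unit, with -2.55 and Fdps, which joins such units, with -2.13. Of these 9 falls, 6 kept their sign after median scaling, and 1 passed there, where 4 members were called higher. Of 30 fatty acid oxidation genes 3 fell and 0 rose: Acaa1b and Ehhadh, enzymes of the peroxisome, with -2.05 and -1.16, and Cpt1a, the liver form of the enzyme that admits fatty acids to mitochondria, with -1.80. The signs of Acaa1b and Ehhadh turned after median scaling, where 18 members of this list were called higher and 1 lower. Housekeeping scaling called 3 of them higher and 11 lower. The liver markers moved with all 3 lists, and their part in these falls was not tested.

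The start sites of genes in the liver list were inspected in the RefSeq sequences of GRCm38.p6. HNF1 factors, which act in liver cells, bind a site of which GTTAAT is one arm. Over the 190 bases before the annotated start, this motif or its reverse complement ATTAAC stood in 4.75% of all 32851 promoters. It stood in 1 of the 4 MHC class II genes with an entry and in 6 of the 40 liver genes with an entry (15.0%). These 3 genes are shown because they fell and hold a match, in capitals, at 32 bases before the start in Alb (chr5:90460680-90460869, plus strand), at 107 in Fabp1 (chr6:71199689-71199878, plus strand) and at 29 in Fgb (chr3:83049864-83050053, minus strand). A match is a description of the letters and no proof of binding.
Alb: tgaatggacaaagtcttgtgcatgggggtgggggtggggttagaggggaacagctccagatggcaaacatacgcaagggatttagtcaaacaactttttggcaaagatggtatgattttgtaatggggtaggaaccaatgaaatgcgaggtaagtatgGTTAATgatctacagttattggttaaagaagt
Fabp1: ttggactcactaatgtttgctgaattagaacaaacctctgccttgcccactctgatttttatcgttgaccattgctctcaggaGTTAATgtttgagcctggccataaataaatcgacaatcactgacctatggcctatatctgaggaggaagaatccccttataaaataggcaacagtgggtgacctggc
Fgb: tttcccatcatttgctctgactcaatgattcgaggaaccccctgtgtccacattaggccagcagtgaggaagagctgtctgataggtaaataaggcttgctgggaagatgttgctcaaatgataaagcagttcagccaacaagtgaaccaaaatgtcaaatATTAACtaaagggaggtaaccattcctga

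Sperm mature in the epididymis, and 4 of the 10 largest rises were of genes typical of its lining. Gpx5, the epididymal glutathione peroxidase (probe mMC004874), had levels of 8.73, 9.18 and 9.05 in diabetic mock mice. On the normal mock arrays it had 5.75, 5.89 and 6.04, all below the floor. It was at least 3.96-fold higher in diabetic mock mice (adjusted p = 4.3e-07). The epididymal lipocalins Lcn8 and Lcn5 were at least 2.52-fold and at least 2.33-fold higher, and Spink8, a protease inhibitor, at least 2.32-fold higher. 9230104L09Rik, named Cstdc2 in RefSeq and in none of the gene lists, was at least 2.14-fold higher. Of 29 measured epididymis genes 11 rose and 0 fell, against 4.73% higher over all probes. Their median was 0.47, or 0 with groups below the floor at their bound. Of the 11 rises, 10 kept their sign after housekeeping scaling and after cyclic loess. Housekeeping scaling called 6 members higher and 14 lower, and cyclic loess 3 and 1. The samples with these transcripts were labelled male, and none of the normal mock samples was.

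Digestive enzymes of the pancreas showed the same pattern at lower levels. Of 13 exocrine pancreas genes 8 rose and 0 fell, beside 4.73% of all probes higher and 3.98% lower. Of the 13, 12 exceeded the floor on every diabetic mock array but 0 on every normal mock array. Ctrb1, the precursor of chymotrypsin, had levels of 7.94, 7.41 and 7.97 in diabetic mock mice and 5.99, 5.86 and 6.04 in normal mock mice, at least 1.7-fold higher. Clps, the cofactor of pancreatic lipase, was at least 1.6-fold higher (adjusted p = 0.0181). After housekeeping scaling, and likewise after cyclic loess, 3 of the 8 rises kept their sign. Housekeeping scaling called 1 pancreas gene higher and 5 lower, and cyclic loess 0 in either direction. Of 12 germ cell genes 0 were called by limma in either direction, with 2 at an unadjusted p under 0.05, and 11 were below the floor on all 6 arrays.

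Genes that present antigen rose. MHC class II molecules display peptides to helper T cells and are made mainly by dendritic cells, macrophages and B cells. Of 7 measured genes of this pathway 5 rose, 0 fell and the median was 1.70. Without diabetic mock replicate 3 there were 3 rises. The 5 rises kept their sign after median scaling and cyclic loess, and 4 after housekeeping scaling, where H2-DMa turned to -0.70. Cd74, the invariant chain that guides class II molecules through the cell (probe mMC024080), had levels of 9.09, 8.93 and 8.99 in diabetic mock mice. In normal mock mice it had 7.46, 5.76 and 5.84, with replicate 1 apart from the other 2. The difference was 2.65 (SE 0.49, adjusted p = 0.00899).

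The chains of the class II dimer moved with Cd74. H2-Ea had levels of 9.33, 9.21 and 8.99 in diabetic mock mice and 7.10, 5.82 and 7.28 in normal mock mice, a difference of 2.44 (adjusted p = 0.00778). H2-Eb1, its partner chain, had 9.51, 9.51 and 9.70 in diabetic mock mice and 7.90, 7.57 and 7.41 in normal mock mice, a difference of 1.94 (SE 0.19, adjusted p = 0.000129). H2-Aa had 9.93, 9.98 and 10.09 in diabetic mock mice and 7.65, 8.89 and 8.37 in normal mock mice (adjusted p = 0.0132). H2-DMa, which helps to load peptides, passed without a fold. H2-DMb2, its partner, had an adjusted p of 0.103, and Ciita, the activator of class II genes, was below the floor on all 6 arrays.

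Class II promoters share an inverted CCAAT element known as the Y box. CTGATTGG or its reverse complement CCAATCAG stood within 190 bases of the start in 3.49% of all promoters and in 2 of the 4 class II genes with an entry. Both are shown, with the Y box in capitals, since they rose together. It begins 51 bases before the start in H2-Aa (chr17:34287824-34288013, minus strand) and 62 bases before it in H2-Eb1 (chr17:34305677-34305866, plus strand), in GRCm38.p6.
H2-Aa: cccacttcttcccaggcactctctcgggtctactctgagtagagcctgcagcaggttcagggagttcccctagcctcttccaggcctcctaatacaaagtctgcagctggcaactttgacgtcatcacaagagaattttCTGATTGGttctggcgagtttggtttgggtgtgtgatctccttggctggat
H2-Eb1: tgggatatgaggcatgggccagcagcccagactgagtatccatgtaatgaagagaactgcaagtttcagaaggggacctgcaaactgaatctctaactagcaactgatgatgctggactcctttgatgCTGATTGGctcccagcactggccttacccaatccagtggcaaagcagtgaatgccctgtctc

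Macrophage markers were partly higher. Of 24 measured macrophage markers 9 rose, 0 fell and 15 did not pass, beside 4.73% of all probes higher and 3.98% lower. The median was 0.56, and 6 of the rises kept their sign after housekeeping scaling, where 4 markers were called higher and 5 lower. Among the rises, Adgre1, Cd68, Cd163 and Tyrobp were below the floor on all normal mock arrays. Leaving out diabetic mock replicate 1, 2 or 3 gave 4, 4 and 3 rises, and leaving out normal mock replicate 2 or 3 gave 6. Cd14, the receptor for bacterial lipopolysaccharide, had levels of 9.07, 9.25 and 9.06 in diabetic mock mice and 7.41, 7.46 and 7.32 in normal mock mice. The difference was 1.73 (SE 0.22, adjusted p = 0.000848). Cd68, a protein of macrophage lysosomes, was at least 1.44-fold higher, and the chemokine Ccl6 had a difference of 1.09 (adjusted p = 0.0119). Adgre1, the F4/80 antigen, passed without a fold and turned sign after housekeeping scaling. Of 11 B and T cell genes 0 rose, and the 1 called lower, Cd4, was below the floor on all 6 arrays. Of 36 inflammatory genes 7 rose and 1 fell. Of these 7 rises, 3 kept their sign after housekeeping scaling, where 3 members were called higher and 18 lower. Cxcl13, which draws B cells, had a difference of 1.46. The fall was that of Ccl2, which draws monocytes, with -0.88, and it turned to 0.71 after median scaling.

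Acute phase genes, whose products change in blood during inflammation, moved in both directions. Of 20 such genes 4 rose and 7 fell, beside 4.73% of all probes higher and 3.98% lower. Lcn2, an iron-trapping protein of fat and neutrophils, had levels of 10.58, 11.04 and 10.68 in diabetic mock mice and 8.82, 8.68 and 8.42 in normal mock mice, a difference of 2.13 (SE 0.39, adjusted p = 0.00833). Saa3, a serum amyloid made in fat and macrophages, had 12.12, 11.96 and 12.37 in diabetic mock mice and 9.59, 10.81 and 10.48 in normal mock mice, a difference of 1.86. Steap4, a metal reductase of fat cells, was among the 10 largest rises with 2.44 (adjusted p = 0.0373). The 7 falls included Hamp, Fgb and Hpx, the heme carrier of plasma, and kept their sign under all 3 other scalings. Metallothioneins bind zinc and copper. Mt2 had levels of 14.13, 14.39 and 14.13 in diabetic mock mice and 12.92, 13.40 and 13.34 in normal mock mice, 1.99-fold higher in diabetic mock mice, but with a log2 difference of -0.95 after cyclic loess. Mt4 had a difference of 2.43 (adjusted p = 0.0348), with normal mock replicate 2 at 5.67 and the other 2 at 7.88 and 7.62.

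Genes of the fat cell moved in both directions. Of 27 white fat genes 4 rose, 3 fell and 20 did not pass, beside 4.73% of all probes higher and 3.98% lower. Their median was 0.42 and became 2.07 after median scaling. The rises were those of Car3, a carbonic anhydrase abundant in fat, with 1.62 (adjusted p = 0.0217), Lipe, the hormone-sensitive lipase that insulin restrains, with 1.22 (adjusted p = 0.0304), Adipoq with 0.92 (adjusted p = 0.0407) and Lpl, which takes fat from blood, with 0.64, while a second probe of Lpl did not pass. A second probe each of Car3 and Lipe was not called higher. Of the 4 rises, Adipoq and Lpl turned sign after cyclic loess, to -0.20 and -0.42. Lep, the satiety hormone leptin, had levels of 6.38, 6.46 and 6.40 in diabetic mock mice and 8.35, 8.05 and 8.05 in normal mock mice. Its difference was -1.74 (SE 0.27, adjusted p = 0.00311), with the same sign under every scaling. Rbp4, the retinol carrier of liver and fat, differed by -1.65, and Dgat2, which makes triglyceride, by -0.42. Both turned sign after median scaling. Without diabetic mock replicate 1, 2 or 3 there were 0 rises among the white fat genes, and without normal mock replicate 2 or 3 there were 1 and 2.

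Other fat cell genes were close in the 2 groups. Pparg, the regulator of fat cell formation, had levels of 7.80, 7.74 and 7.73 in diabetic mock mice and 7.74, 7.94 and 7.70 in normal mock mice (adjusted p = 0.918). Fabp4, the fatty acid binding protein of fat, had a difference of -0.16 (adjusted p = 0.9). Both were positive after median scaling. Of 18 lipid droplet and lipolysis genes 4 rose and 0 fell, beside 4.73% of all probes higher and 3.98% lower. Among the rises were Abhd5, the activator of triglyceride lipase, with 0.81 and Cav1, the main protein of caveolae, with 0.89. Plin4, a coat protein of droplets, had a difference of 1.62 with an adjusted p of 0.0503 and normal mock levels spread from 7.41 to 9.46. Leaving out diabetic mock replicate 1, 2 or 3 gave 0, 0 and 1 rises in this list, and leaving out normal mock replicate 1 or 2 gave 8 and 2.

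Among 18 fixed genes of insulin action with a probe, 2 rose and 1 fell, beside 4.73% of all probes higher and 3.98% lower. Median scaling called 13 of them higher and 4 lower, and housekeeping scaling 3 and 9. Pdk4, the kinase that blocks entry of pyruvate into the citric acid cycle and that insulin represses, had levels of 8.56, 8.84 and 8.80 in diabetic mock mice. On the normal mock arrays it had 7.31, 5.86 and 6.58, 1 of them above the floor. The difference was 2.15 (SE 0.28, adjusted p = 0.00115), with adjusted p values of at most 0.0202 over the alternatives. Insr, the insulin receptor, had 6.37, 6.05 and 6.22 in diabetic mock mice and 5.85, 5.82 and 5.68, all below the floor, in normal mock mice. It passed without a fold (adjusted p = 0.0344) and turned to -1.06 after housekeeping scaling. The fall was that of G6pc.

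The remaining insulin action genes did not pass. Slc2a4, the insulin-driven glucose transporter GLUT4, had levels of 6.49, 6.40 and 6.44 in diabetic mock mice and 6.60, 5.95 and 6.49 in normal mock mice (adjusted p = 0.809). Fbxo32, a ubiquitin ligase of muscle wasting, had 7.44, 7.62 and 8.14 in diabetic mock mice and 6.23, 5.89 and 5.70 in normal mock mice, at least 1.66-fold higher, with an adjusted p of 0.0716. Txnip, which responds to glucose, had 11.30, 11.02 and 11.08 in diabetic mock mice and 9.11, 9.89 and 9.75 in normal mock mice (difference 1.55, SE 0.83, adjusted p = 0.263). For both genes the 2 groups did not overlap. Slc2a1, the basal transporter GLUT1, had an adjusted p of 0.0562. The signalling genes Pik3r1, Pik3ca, Akt1, Akt2 and Gsk3b had adjusted p values of 0.309, 0.974, 0.429, 0.78 and 0.197. Hk2, which traps glucose in the cell, had 0.655, Igfbp1, a liver binding protein of growth factors, 0.0931 and Srebf1, a regulator of fat synthesis, 0.872. Irs1 and Ppargc1a were below the floor on all 6 arrays.

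Counts in wider insulin signalling depended on the scaling. After median scaling 33 of 43 genes were called higher and 2 lower, and after housekeeping scaling 2 and 23. After quantile normalization 4 rose and 1 fell, beside 4.73% of all probes higher and 3.98% lower. Of these 4 rises, 1 had the same sign after housekeeping scaling. The rises were led by Ptpn11, the phosphatase SHP2, with a difference of 1.18 (adjusted p = 0.00501). Of 25 genes of glucose uptake and GLUT4 traffic 2 rose, and the 1 called lower, Slc2a2, was below the floor on all 6 arrays. Among the rises was Sort1, a sorting receptor of GLUT4 vesicles, at least 1.13-fold higher. A second probe of Sort1 was not called higher. Of 18 glycolysis genes 0 were called by limma in either direction, with 5 at an unadjusted p under 0.05. Of 28 genes of wasting and FoxO targets 3 rose, and the 1 called lower, Sesn1, was below the floor on all 6 arrays. Ddit4, an inhibitor of mTOR signalling that glucocorticoids and stress induce, had levels of 9.11, 9.39 and 9.15 in diabetic mock mice and 7.14, 7.29 and 7.06 in normal mock mice. Its difference of 2.05 (SE 0.10, adjusted p = 6.18e-07) passed under each of the alternatives fitted.

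Genes of oxidative phosphorylation and of the citric acid cycle moved upward where they moved. Of 54 oxidative phosphorylation genes 5 rose, 4 of them with the same sign after housekeeping scaling, 0 fell and the median was 0.36. Without diabetic mock replicate 1, 2 or 3 there were 3 rises each. Cox5a, a subunit of cytochrome oxidase, had levels of 9.56, 9.52 and 9.60 in diabetic mock mice and 7.14, 7.20 and 7.99 in normal mock mice, a difference of 2.12 (SE 0.27, adjusted p = 0.00101). Ndufb9, a subunit of complex I, was at least 2.14-fold higher, and Cox4i1 had a difference of 1.59 (adjusted p = 0.0199). Atp5b, the catalytic chain of ATP synthase, had 12.27, 12.21 and 12.10 in diabetic mock mice, against 10.60, 9.08 and 11.96 in normal mock mice. With that spread it did not pass (adjusted p = 0.129). Of 28 citric acid cycle and pyruvate dehydrogenase genes 5 rose and 0 fell, and again 4 kept their sign after housekeeping scaling. Without diabetic mock replicate 1, 2 or 3 there were 3 rises each. One of the 5 was Pdk4, which restrains the pathway. Others were Pdha1, the first subunit of pyruvate dehydrogenase, with 1.39 and Idh3g, a subunit of isocitrate dehydrogenase, with 1.21. The share that rose was 9.26% of the oxidative phosphorylation genes and 17.9% of the citric acid cycle genes, against 4.73% over all probes. Ywhab, a 14-3-3 adaptor protein, was the last of the 10 largest rises, with 11.14, 11.26 and 11.02 in diabetic mock mice and 9.70, 8.03 and 9.24 in normal mock mice.

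Contractile genes were near the floor. Of 41 skeletal muscle genes 0 rose and 11 were called lower, 4 of them below the floor on all 6 arrays. Over all probes 4.73% were called higher and 3.98% lower. After median scaling 9 of the falls kept their sign, but 9 members were called higher and 6 lower. Acta1, the actin of skeletal muscle, had levels of 5.96, 6.09 and 6.13 in diabetic mock mice and 8.02, 7.33 and 7.68 in normal mock mice, a difference of -1.62 (SE 0.25, adjusted p = 0.00338). Ckm was at least 2.1-fold lower in diabetic mock mice, Mylpf, a myosin light chain, at least 2.36-fold lower and Mb, the oxygen store myoglobin, at least 1.88-fold lower. Smooth muscle genes went the other way, with 3 of 10 called higher and 0 lower. Of these 3 rises, 2 kept their sign after housekeeping scaling, where 1 member was called higher and 5 lower. Mylk, the myosin light chain kinase, had a difference of 1.29 (adjusted p = 0.00315).

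**Figure D4:**
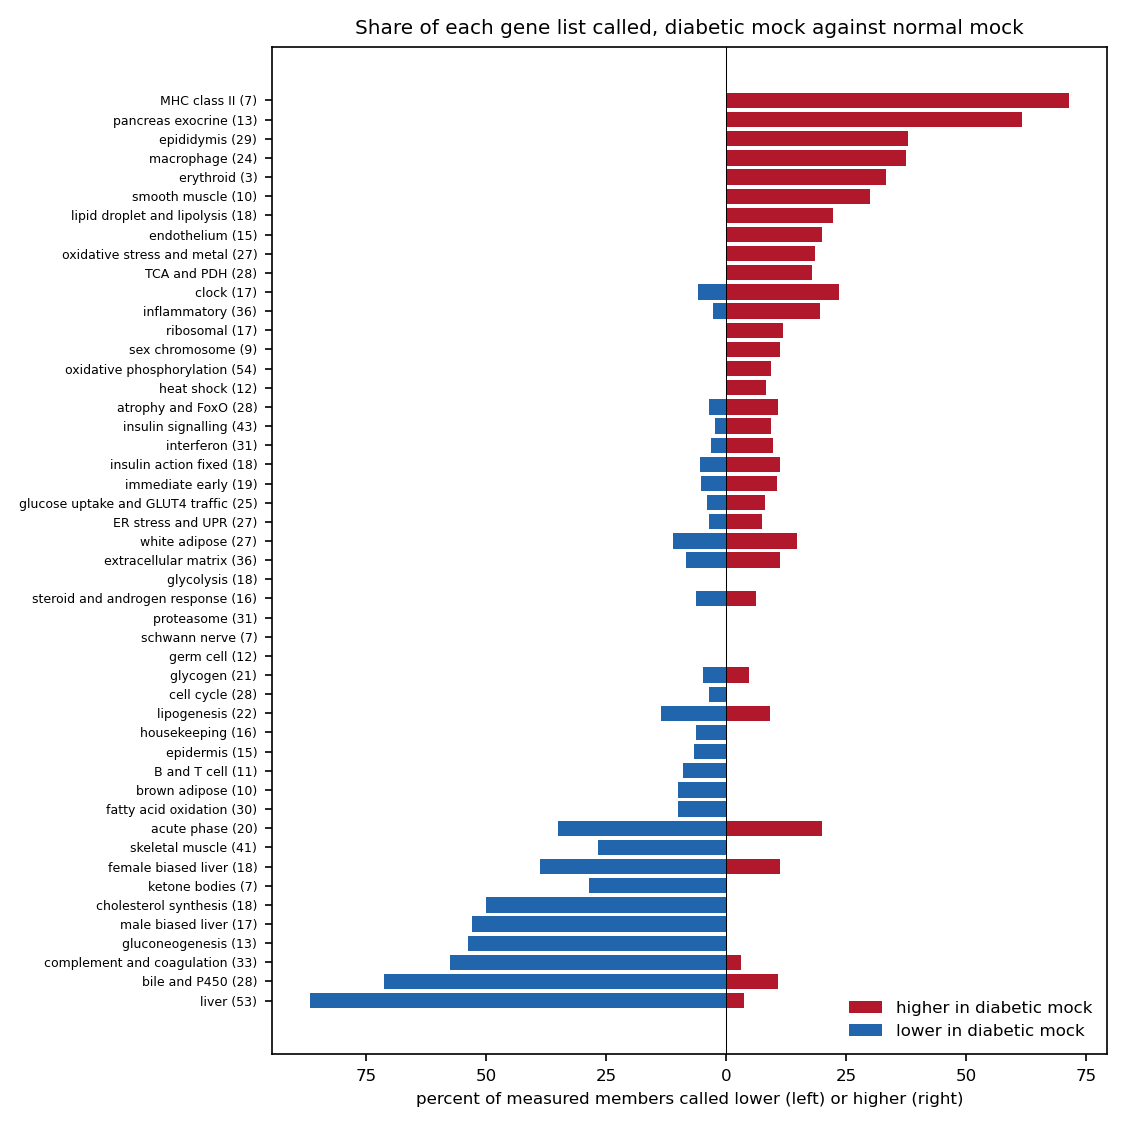
For each gene list, with its number of measured members in brackets, the bars give the percent of members called higher (red, right) and lower (blue, left) in diabetic mock against normal mock mice. Liver lists stand at the lower end, and MHC class II, pancreas and epididymis lists at the upper end. Over all probes 4.73% were called higher and 3.98% lower.

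Other processes are given by their counts, beside 4.73% of all probes higher and 3.98% lower. Of 31 interferon genes 3 rose and 1 fell, of 36 extracellular matrix genes 4 rose and 3 fell, and of 22 lipid synthesis genes 2 rose and 3 fell. Of 27 genes of oxidative stress and metal binding 5 rose (18.5%) and 0 fell. Of the 5 rises, 5 and 4 kept their sign after housekeeping scaling and cyclic loess. Housekeeping scaling called 4 members of this list higher and 10 lower, and cyclic loess 3 and 6. Of 17 clock genes 4 rose (23.5%) and 1 fell. Of these, 1 rise kept its sign after housekeeping scaling, where 0 members were called higher and 11 lower. Of 15 endothelial genes 3 rose, and 0 of these kept their sign there. Of 31 proteasome genes 0 were called by limma in either direction, with 5 at an unadjusted p under 0.05.

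Sex was read from genes of the sex chromosomes. Eif2s3y, a translation factor gene on the Y chromosome, had levels of 7.46, 7.56 and 7.32 in diabetic mock mice and 5.85, 5.79 and 5.84 in normal mock mice, at least 1.35-fold higher (adjusted p = 8.06e-06). It was above the floor on all 3 arrays labelled male and on none of the 3 labelled female. The other Y-linked genes with a probe, Kdm5d, Uty, Usp9y and Zfy1, were below the floor on all 6 arrays. Among liver genes with a known sex bias, falls were counted on both sides, with 1 on each side below the floor on all 6 arrays. Of 17 male-biased liver genes 9 fell and 0 rose, including Mup3, a urinary protein, at least 39.8-fold lower in the male diabetic mock mice. Of 18 female-biased liver genes 7 fell and 2 rose, including Cyp2b9 with -2.25. Since 46 genes of the liver list fell as well, these counts give no reading of sex. Over all probes 4.73% were called higher and 3.98% lower.

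The difference between diabetic and normal mice was measured again on the 6 mcIRBP arrays, which share no array with the mock groups. It was not the same. For 2760 probes, 9.22% of all, the diabetic minus normal difference itself differed between mcIRBP and mock arrays, being more positive with mcIRBP for 1290 and more negative for 1470. Of the 2606 probes called between the mock groups, 427 were called the same way between the mcIRBP groups and 300 the opposite way. Liver genes were bright in 1 group of the 4: of 53, 6 exceeded the floor on every diabetic mcIRBP array, 10 on every normal mcIRBP array, 15 on every diabetic mock array and 47 on every normal mock array. Ttr averaged 5.71 in diabetic mcIRBP and 5.87 in normal mcIRBP mice, both below the floor. It averaged 5.69 in diabetic mock mice, also below the floor, and 12.78 in normal mock mice.

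The diabetic minus normal difference was more positive with mcIRBP for 26 of 29 epididymis genes and 12 of 13 pancreas genes, and more negative for 0 of either. Over all 29922 probes it was more positive for 1290 and more negative for 1470. In the next 3 genes both normal groups were below the floor, so only the levels are given. Gpx5 averaged 13.31 in diabetic mcIRBP mice and 8.99 in diabetic mock mice. Defb20, an epididymal defensin, averaged 13.94 in diabetic mcIRBP and 8.06 in diabetic mock mice, and Ctrb1 averaged 11.07 in diabetic mcIRBP and 7.77 in diabetic mock mice. Adipoq and Cd14 had differences of opposite sign. Adipoq had a difference of -3.30 with mcIRBP and 0.92 without it, and Cd14 one of -0.81 with mcIRBP and 1.73 without it. Pdk4 averaged 5.97 in diabetic mcIRBP mice, below the floor, and 7.09 in normal mcIRBP mice. It averaged 8.73 in diabetic mock mice and 6.58 in normal mock mice (adjusted p of the change 0.000485). Ddit4 had a difference of 1.60 with mcIRBP beside 2.05 without it (adjusted p of the change 0.0963). Eif2s3y averaged 7.18 in diabetic mcIRBP and 5.88 in normal mcIRBP mice, beside 7.44 in diabetic mock and 5.83 in normal mock mice, with both normal groups below the floor. Lcn2 had 2.47 with mcIRBP and 2.13 without it (adjusted p = 0.759).

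**Figure D5:**
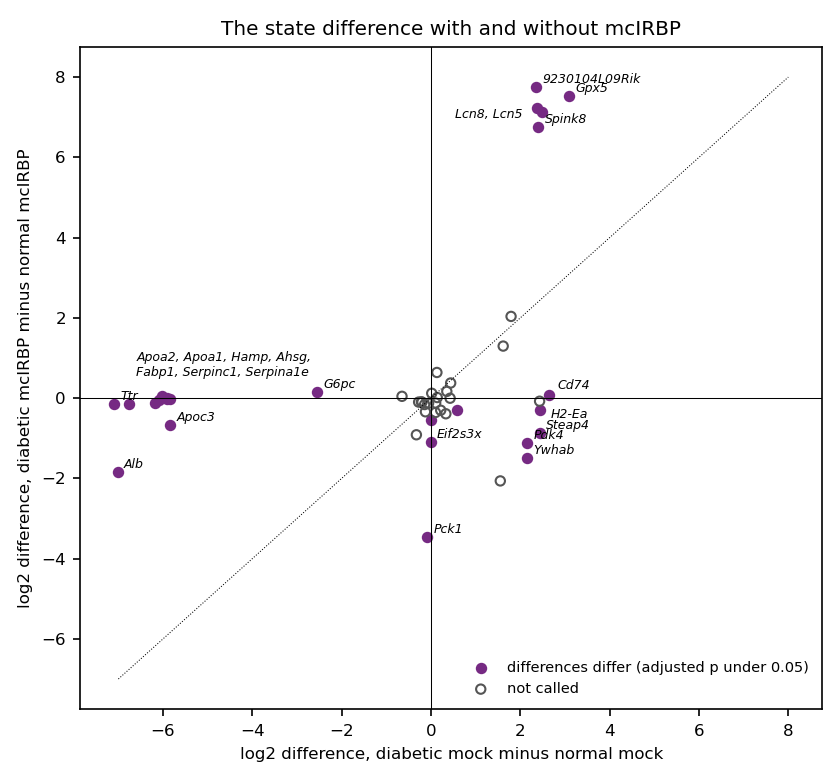
Each point is one of the genes with the 10 largest rises and 10 largest falls or a fixed gene of insulin action or the sex chromosomes, with the diabetic minus normal log2 difference of the mock arrays across and that of the mcIRBP arrays upward. Filled points are genes whose 2 differences differed (adjusted p under 0.05), and the dotted line marks equal differences. Ttr lies at -7.09 across and -0.16 upward, and Gpx5 at 3.10 across and 7.52 upward. These are fitted values that rest on groups below the floor, so their distance from the line is no measured size.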

How the data were processed

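The members and gene lists were chosen with earlier results of these data known. Each deposited array file holds a raw intensity and a normalized intensity per probe, per the file headers. The authors' normalized intensity had a median of 40.3 to 40.4 on the diabetic mock and 62.9 to 63.2 on the normal mock arrays, so the raw intensity was used. The submitters' processing notes name limma; which steps were run with it is not given. Background was removed from the 12 arrays' raw intensity by normexp with an offset of 50, followed by joint quantile normalization and log2. A model with 1 mean for each of 4 groups was fitted in limma 3.58.1 under R 4.3.3, with 8 residual degrees of freedom and Benjamini-Hochberg adjustment over 29922 probes. Tested on simulated data of these 29922 probes, the fit called 91 of 107 probes changed by 2 on the log2 scale and 91 of 93 changed by 3, with the right sign, and 9 unchanged ones. The changed probes were drawn from the brighter probes only, and each probe had the same simulated spread in all groups. Recovery among dimmer probes was therefore not tested. The 2 groups of 3 arrays limit the precision.

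Symbols came from the platform annotation: 21020 probes had 1 symbol and 8902 had none, and 16633 of 16675 symbols were found in RefSeq. A gene in a list was represented by its brightest probe. Named were the 10 largest rises and falls with groups that did not overlap and signal on all 3 arrays of the higher group, up to 3 such changes per direction in each list, and fixed genes of insulin action and the sex chromosomes; 17 further genes, and Lpl, were chosen after their values were seen. Replicate numbers did not pair the groups (correlations of deviations -0.06, -0.14 and -0.02). Alternatives changed background, scaling, model, filter or arrays.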

Additional observations from a re-analysis of the deposited data

Results flagged for a closer look

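The diabetic minus normal difference was tested between mcIRBP and mock arrays, and it differed for 2760 probes. The values below are the difference with mcIRBP minus that without it, on the log2 scale, for the largest rises and falls and the fixed genes (25 of 47 passed in limma at an adjusted p under 0.05). The change was positive for the liver genes: 6.94 for Ttr, 6.61 for Apoa2, 6.07 for Ahsg, 6.06 for Apoa1, 6.04 for Hamp, 5.91 for Fabp1, 5.88 for Serpinc1, 5.83 for Serpina1e, 5.17 for Alb, 5.17 for Apoc3 and 2.70 for G6pc. It was also positive for 9230104L09Rik with 5.41 and for the epididymis genes: 4.86 for Lcn5, 4.64 for Lcn8, 4.43 for Gpx5 and 4.35 for Spink8. These are fitted values whose sizes have no order. Ttr, Apoa2, Hamp, Fabp1 and Serpinc1 were below the floor on every diabetic mock array and every mcIRBP array. 9230104L09Rik, Lcn5, Lcn8, Gpx5 and Spink8 were below it on all normal mock arrays.

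The change was negative for Ywhab with -3.64, for Pck1 with -3.38, for Steap4 with -3.32 and for Pdk4 with -3.27. It was -2.74 for H2-Ea, -2.57 for Cd74, -1.09 for Eif2s3x, -0.87 for Slc2a1 and -0.56 for Pik3ca. Of these, Slc2a1 and Pik3ca were below the floor on all normal mock arrays, and Pdk4 and Pik3ca on all diabetic mcIRBP arrays. Among the diabetic mcIRBP arrays, replicate 3 had 4302 probes above the floor, against 7855 and 7520 for replicates 1 and 2.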

How the results depend on the processing

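Between the mock groups 1415 probes were called higher and 1191 lower. Median scaling gave 10073 and 5019, and housekeeping scaling 395 and 24585. Requiring also a log2 difference of at least 1 gave 286 and 389. Array weights gave 690 higher, an intensity trend with robust estimation 1849 lower, and keeping only probes above the floor in a mock group 500 lower. Leaving out 1 array gave 523 to 1669 higher and 606 to 1975 lower calls, with diabetic mock replicates 1, 2 and 3 and normal mock replicate 1 moving a count by over 1.5 times. Of the differences between mcIRBP and mock arrays, 1290 were positive and 1470 negative. Housekeeping scaling gave 21112 and 626, the size requirement 763 and 744, median scaling 4894 negative and the floor filter 699 positive. Leaving out 1 array gave 988 to 1775 positive and 917 to 1724 negative, the lowest without diabetic mock replicate 2. With the replicate number as a block (replicate block), 1030 higher and 923 lower calls were made, although same-numbered samples did not deviate together. The cause of these shifts was not tested.

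The log2 difference of some named genes changed sign under 3 scalings. First come those that passed before or after the change. After cyclic loess it was Mt2 -0.95, Lpl -0.42, Hp -0.32 and Adipoq -0.20. After housekeeping scaling it was Srebf1 -1.65, Kdm5d -1.55, Kdm6a -1.18, Akt1 -1.09, Tek -1.09, Insr -1.06, Pik3ca -1.04, Icam2 -0.96, Rheb -0.90, Per1 -0.88, Slc2a4 -0.87, Cux2 -0.80, H2-DMa -0.70, Col15a1 -0.67, Irs4 -0.64, Rps19 -0.56, Vwf -0.40, Nr1d2 -0.37, Col5a1 -0.21, Adgre1 -0.14, Nfkb1 -0.13, Pros1 -0.13, Pdia4 -0.11 and Slc2a3 -0.0069. After median scaling it was Acaa1b 0.026, Ehhadh 0.079, Apoc1 0.091, Col18a1 0.46, Herpud1 0.53, Rbp4 0.62, Scd1 0.70, Ccl2 0.71, Postn 0.73, Rora 0.87, Dgat2 1.18, Akt2 1.35, Eif2s3x 1.40, Ppib 1.42, Pparg 1.66, Fabp4 2.07 and Pck1 2.15. Genes that passed in neither fit also turned: Pik3ca -0.11, Hk2 -0.027, Pparg 0.019 and Zfy1 0.052 after cyclic loess, Slc2a1 -0.77, Gsk3b -0.71, Kdm5c -0.71, Pik3r1 -0.10, Fabp4 0.33 and Pck1 0.41 after housekeeping scaling, and Trf 0.094 and Ddx3x 1.38 after median scaling. Of 162 named genes checked (Lpl apart), 0 changed sign with a call under the other alternatives. Signal limits all of this: 611 called probes were below the floor on all 6 arrays, and differences between such signals have no order.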
